A study of Mus musculus with 9 samples.

Results

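The genes described here are 33 components of the protein-folding machinery of the endoplasmic reticulum (ER) and of the unfolded protein response. They were chosen by name, with earlier results of these data known, and all 33 were measured among the 19938 genes tested. By role they comprised 14 chaperones and folding enzymes, 6 stress sensors and transcription factors, 9 genes of ER-associated degradation and 4 targets of the transcription factors ATF4 and CHOP. Each gene was represented by 1 probe set that names it alone. For Pdia4 and Dnajc3, which had more than 1 such probe set, the one with the highest mean over the 9 arrays was used.

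Mouse dendritic cells were grown from bone marrow progenitors and their total RNA was hybridised to Affymetrix whole-transcript arrays, 3 per group from independent cultures. The groups were JmjD2d-knockdown cells 4 h after 100 ng/ml LPS, untransduced wild-type (WT) cells 4 h after the same LPS dose, and untransduced, unstimulated WT cells. LPS, a bacterial cell wall component, is sensed by Toll-like receptor 4. JmjD2d, the product of Kdm4d, is a demethylase of lysine 9 on histone H3. According to the labels' protocols, progenitors of all groups grew in SCF, IL-3 and IL-6 (20 ng/ml each) and then differentiated for 8 d, of which 4 d were in 4% GM-CSF supernatant with 5 ng/ml SCF and 4 d in GM-CSF without SCF. The knockdown cells alone carried a retroviral hairpin in the pSir-delta U6CHisD vector and were selected in 2 mM histidinol. Hairpin, infection and selection therefore cannot be told apart here. Arrays of a control hairpin or of unstimulated knockdown cells were not analysed here.

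As background, the ER folds secreted and membrane proteins with the help of lumenal chaperones, and misfolded proteins are sent back to the cytosol for degradation. When unfolded proteins accumulate, the membrane sensors IRE1 (encoded by Ern1), PERK (Eif2ak3) and ATF6 are released from the chaperone BiP (Hspa5). IRE1 splices the Xbp1 transcript into one for an active transcription factor, ATF6 is cut to release its own, and PERK phosphorylates eIF2alpha, which slows translation while favouring that of ATF4. ATF4 in turn raises CHOP (Ddit3), amino acid synthesis genes and Ppp1r15a, whose product GADD34 removes the phosphate again. In mouse dendritic cells the IRE1 and XBP1 arm is known to be active without added stress, and in mouse macrophages Toll-like receptor signalling is known to feed into it. The arrays report transcript amounts summed over a gene, so neither the splicing of Xbp1 nor the activation of a sensor protein is visible in them.

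The promoter elements through which these genes are known to be controlled are shown first, because members that share an element are compared further on. Sequences are those of RefSeq (GRCm38.p6), which gave a promoter window for 29 of the 33 members, of 250 bases before and 50 after the start site. Hyou1, Manf, Atf6 and Derl1 had none. The ER stress element (ERSE), bound by ATF6 together with NF-Y, was searched on both strands as CCAAT, 9 free bases and CCACG. It occurred in 9 of the 29 members (31.0%), against 37 of all 27025 genes with a window (0.137%). The 9 were Hspa5, Hsp90b1, Calr, Canx, Pdia6, Dnajc3, Creld2, Syvn1 and Derl3, and Hsp90b1 held 2 copies. The first line gives the whole 250 bases before the Hspa5 start site, chr2:34771840-34772089 on the plus strand, and capitals mark its 1 match to the ERSE. The other lines give the ERSE in capitals with 12 bases on each side, for both copies in Hsp90b1 and for Pdia6, Dnajc3 and Creld2. With Hspa5 these are the members holding an ERSE whose difference between knockdown and WT cells after LPS was the most negative.
Hspa5: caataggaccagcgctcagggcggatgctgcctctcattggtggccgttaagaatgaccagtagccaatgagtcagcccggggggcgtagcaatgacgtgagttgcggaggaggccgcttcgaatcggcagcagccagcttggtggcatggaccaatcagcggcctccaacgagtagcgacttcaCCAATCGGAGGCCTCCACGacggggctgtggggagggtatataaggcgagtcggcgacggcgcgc
Hsp90b1, copy farther from the start, chr10:86705626-86705668, minus strand: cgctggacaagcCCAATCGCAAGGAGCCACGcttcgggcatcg
Hsp90b1, copy nearer to the start, chr10:86705521-86705563, minus strand: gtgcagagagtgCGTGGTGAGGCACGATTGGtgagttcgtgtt
Pdia6, chr12:17266479-17266521, plus strand: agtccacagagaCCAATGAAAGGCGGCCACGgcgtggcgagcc
Dnajc3, chr14:118937815-118937857, plus strand: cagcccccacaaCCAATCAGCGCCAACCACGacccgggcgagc
Creld2, chr15:88819508-88819550, plus strand: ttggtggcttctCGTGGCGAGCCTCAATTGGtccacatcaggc

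In Creld2 and in the copy of Hsp90b1 nearer to the start, the element lay on the opposite strand and so reads as its reverse complement in these lines. The related element ERSE-II, searched as ATTGG, 1 free base and CCACG, occurred in 2 of 29 members (6.9%), against 12 of all genes (0.0444%). These were Herpud1 and Dnajb11, and in Dnajb11 it began 7 bases after the start. The amino acid response element bound by ATF4 with a C/EBP partner (CARE, searched as TGATGNAA) occurred in 4 members (13.8%), against 4.51% of all genes. The 4 were Herpud1, Trib3, Chac1 and Asns. The cyclic AMP response element (CRE, TGACGTCA) occurred in Ppp1r15a alone (3.45%), against 2.03% of all genes. The unfolded protein response element (UPRE, TGACGTGG), bound by XBP1, occurred in 0 members, against 0.714% of all genes. The lines below give these elements in capitals, from the genes whose values stood apart between arrays or groups. These matches are descriptions of the sequence, and copies that depart from the searched letters were not counted.
Herpud1 ERSE-II, chr8:94386365-94386399, plus strand: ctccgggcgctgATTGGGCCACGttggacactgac
Asns CARE, chr6:7693213-7693244, minus strand: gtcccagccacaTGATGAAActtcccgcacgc
Ppp1r15a CRE, chr7:45526269-45526292, minus strand: ccgcctctccggTGACGTCAgcac

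Values are deposited log2 intensities after RMA, the authors' normalization, so a difference is the log2 of a ratio. Array medians lay between 7.217 and 7.315, the correlation across genes between replicates was 0.985 to 0.997, and detection calls were not used here. The targeted gene Kdm4d had log2 values of 7.43, 7.11 and 7.40 in knockdown cells after LPS, against 7.79, 7.54 and 7.74 in WT cells after LPS and 7.24, 7.65 and 7.62 in unstimulated WT cells. The difference after LPS, -0.37 (SE 0.13), did not pass the test over all genes (limma adjusted p = 0.278). Of 15 dendritic cell markers, 11 had a group mean above 7.54, the lowest median of the tested genes on any array, in knockdown cells after LPS, 12 in WT cells after LPS and 13 in unstimulated WT cells. Their means ran from that of Dpp4 (6.34 in knockdown cells after LPS, 6.38 in WT cells after LPS and 6.27 in unstimulated WT cells) to that of Cd74 (12.72 in knockdown cells after LPS, 13.76 in WT cells after LPS and 13.75 in unstimulated WT cells). In the same order of groups, 9, 9 and 7 of 10 macrophage markers were above 7.54. So were 8, 9 and 9 of 10 neutrophil and granulocyte precursor markers. In each group it was 3 of 10 mast cell and basophil, 2 of 9 plasma cell and B cell and 0 of 8 T and NK cell markers. The mean log2 value over the 15 was lower in knockdown cells (8.41 to 9.40 per array) than in WT cells after LPS (9.64 to 10.39) and unstimulated WT cells (9.35 to 10.33). All 15 differences after LPS were negative, with a median of -1.04, and 1, Cd86, passed the test (8 with the replicate number as a block). Differences were also negative for 10 of 10 mast cell and basophil markers (median -0.29, 0 called and 3 lower with the block), 8 of 10 neutrophil and granulocyte precursor markers (median -0.56, 0 called and 1 lower with the block), 5 of 10 macrophage markers (median 0.04), 6 of 9 plasma cell and B cell markers (median -0.06) and 5 of 8 T and NK cell markers (median -0.02). Of these markers of other cells 1 was called, the macrophage gene Spic, which was higher by 2.74. The part of these markers in the results below was not tested, and in bulk RNA fewer cells of a type and less RNA per cell cannot be told apart. The mean of 10 neutrophil and granulocyte precursor markers was lowest on the array numbered 2 in each group. It was 7.732 in knockdown cells after LPS, against 9.937 and 9.758 on the other arrays of that group. In WT cells after LPS it was 8.919, against 10.578 and 9.94. In unstimulated WT cells it was 8.379, against 9.722 and 8.676, so the first array lay farther from the others there. Over all genes the first unstimulated array held the lowest of the 9 values for 23.2%, against 8.54% for the second. Where leaving out the 3 arrays numbered 2, a setting chosen after seeing the data, changed the call of a member, both values are given. Array values have no true zero, so no marker can be called absent.

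In WT cells, LPS lowered the transcripts of the sensor PERK (Eif2ak3) and of the transcription factor Xbp1 and raised Ppp1r15a, the phosphatase subunit that reverses PERK's signal. Eif2ak3 fell by 0.91 on the log2 scale (SE 0.14) to 53.0% of its unstimulated level, and Xbp1 fell by 0.52 (SE 0.08) to 69.7%. Ppp1r15a rose 1.94-fold. The other 30 members did not pass the limma test at an adjusted p under 0.05. Thus 1 of 33 members rose and 2 fell, 9.09% in all, against 10.9% of all genes (3.99% higher and 6.86% lower). The median log2 difference of the members was -0.02, against 0.04 over all genes. Of the 33 differences 17 were negative, against 40.3% of those of all genes. The share of members called was thus near that of all genes. All 3 values lay above those of unstimulated cells for 4 members and below them for 9, against 12.8% and 16.5% of all genes. Without the arrays numbered 2, 4 members were called higher and 6 lower, where that fit called 24.6% of all genes (8.81% higher and 15.8% lower). With 1 array left out at a time, Eif2ak3 and Xbp1 passed in 9 of 9 fits and Ppp1r15a in 2 of 9, with an adjusted p of up to 0.13. In the same fits 8 further members passed once each: Asns, Atf4, Atf6 and Sdf2l1 without the second unstimulated array, Pdia4 and Edem3 without the second WT LPS array, and Hspa5 and Syvn1 without the second knockdown array (limma adjusted p of 0.00565 to 0.049).

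After LPS, knockdown cells had lower values than WT cells for 13 of the 14 chaperones and folding enzymes. Their median log2 difference was -0.28, but no member passed the test over all genes. Among 25 other ER folding enzymes and chaperones that are no members, 17 differences were negative, with a median of -0.06. Of all 33 members 0 were called higher or lower, against 0.762% of all genes (0.401% higher and 0.361% lower), while an unadjusted p under 0.05 was reached by 2 members that were higher and 9 that were lower, against 7.32% and 5.79% of all genes. The median over the members was -0.16, against -0.03 over all genes. Of the 33 differences 24 were negative, against 59.3% of those of all genes. All 3 knockdown values lay below all 3 WT values for 11 members and above them for 4, against 8.38% and 8.21% of all genes. With the replicate number as a block, Creld2 and Sdf2l1 were called lower, where that fit called 2.75% of all genes (1.51% higher and 1.24% lower). Creld2 and Sdf2l1 are small ER proteins induced by ER stress. Creld2 had a log2 difference of -0.58 (SE 0.12) and Sdf2l1 of -0.51 (SE 0.10). Their limma adjusted p was 0.0731 and 0.0628 without the block and 0.0412 and 0.0396 with it. Over the 18 alternative settings it ranged from 0.0412 to 0.236 for Creld2 and from 0.0367 to 0.193 for Sdf2l1, which passed also without the second unstimulated array (0.0427).

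**Figure D1:**
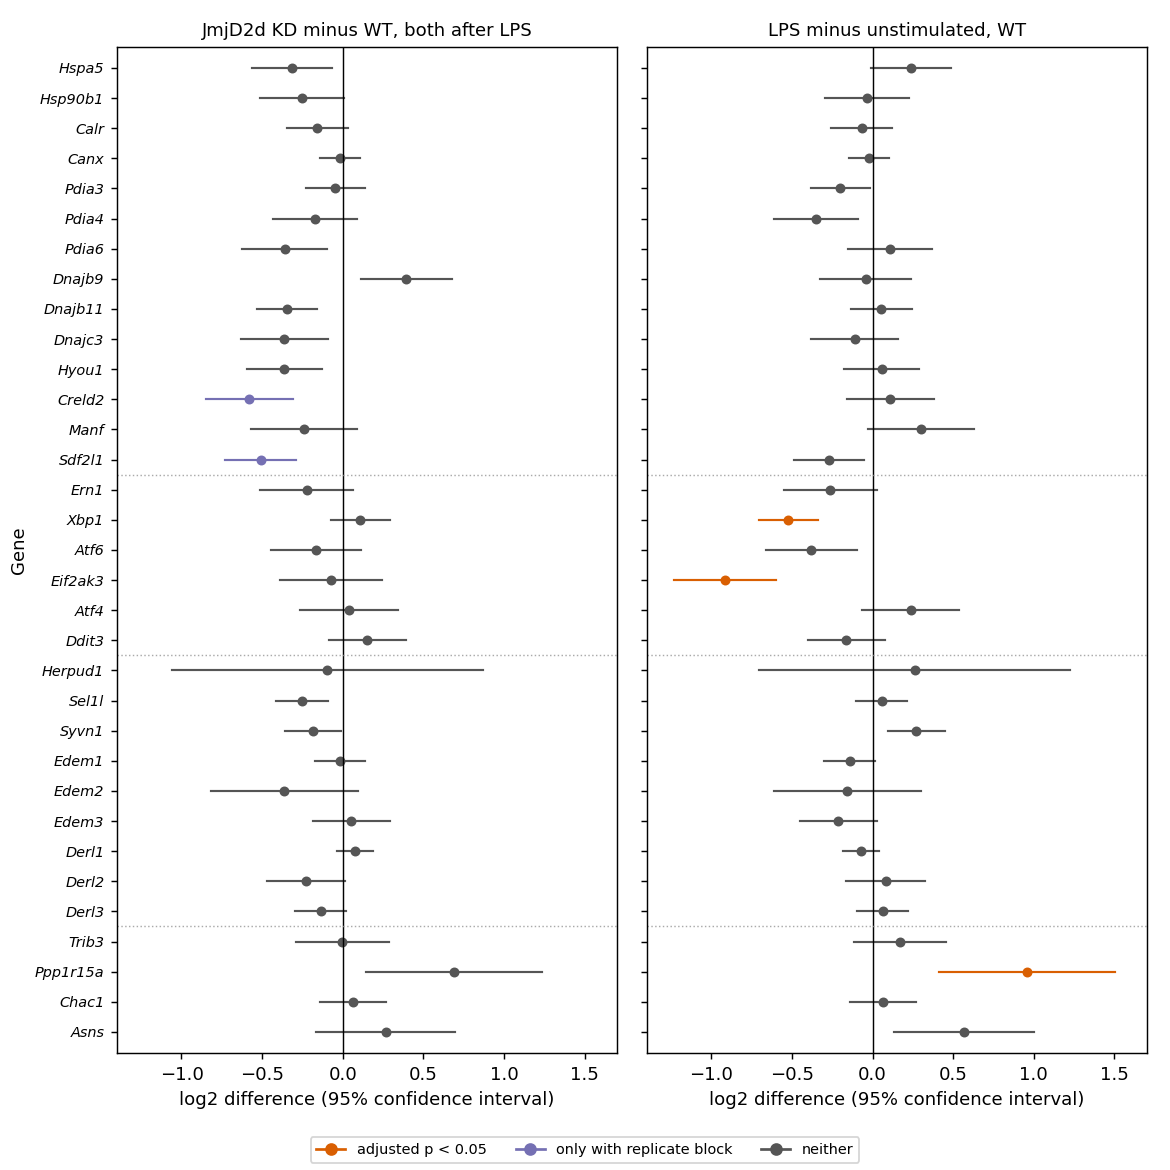
Log2 difference with its 95% confidence interval for each of the 33 genes, with knockdown minus WT after LPS on the left and LPS minus unstimulated in WT on the right. Orange marks an adjusted p under 0.05, purple marks genes called only with the replicate number as a block, and dotted lines separate the roles. On the left 13 of the 14 chaperones at the top lie below 0 and Dnajb9 lies above it. On the right Eif2ak3, Xbp1 and Ppp1r15a are the only called genes.

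Against unstimulated WT cells, LPS-treated knockdown cells had 2 members higher and 8 lower. Ppp1r15a and Asns, the asparagine synthetase, rose. The sensors and factors Eif2ak3, Ern1, Atf6 and Xbp1 fell, as did the chaperones and folding enzymes Sdf2l1, Pdia4, Dnajc3 and Creld2. These 10 were 30.3% of the members, against 10.9% of all genes (4.23% higher and 6.64% lower), and the member median was -0.16, against 0.01 over all genes. With each array centred on its median the split was 2 higher and 4 lower, where that fit called 8.77% of all genes (4.24% higher and 4.53% lower). With 1 array left out it was 1 to 3 higher and 2 to 8 lower, and without the third unstimulated array it was 1 higher and 2 lower, where 5.29% of all genes were called (2.17% higher and 3.11% lower). Without the arrays numbered 2 it was 3 higher and 7 lower, with Atf4 and Edem2 called and Pdia4 and Creld2 no longer called, where 19.1% of all genes were called (6.59% higher and 12.5% lower). With the replicate number as a block it was 2 higher and 10 lower, adding Dnajb11 and Edem2, where that fit called 14.3% of all genes (5.62% higher and 8.65% lower). This comparison shares its arrays with both others and combines the LPS treatment with the knockdown procedure, and the gap between its count and that in WT cells was not tested. All 3 knockdown values lay below the unstimulated ones for 16 members and above them for 3, against 15% and 12.2% of all genes.

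**Figure D2:**
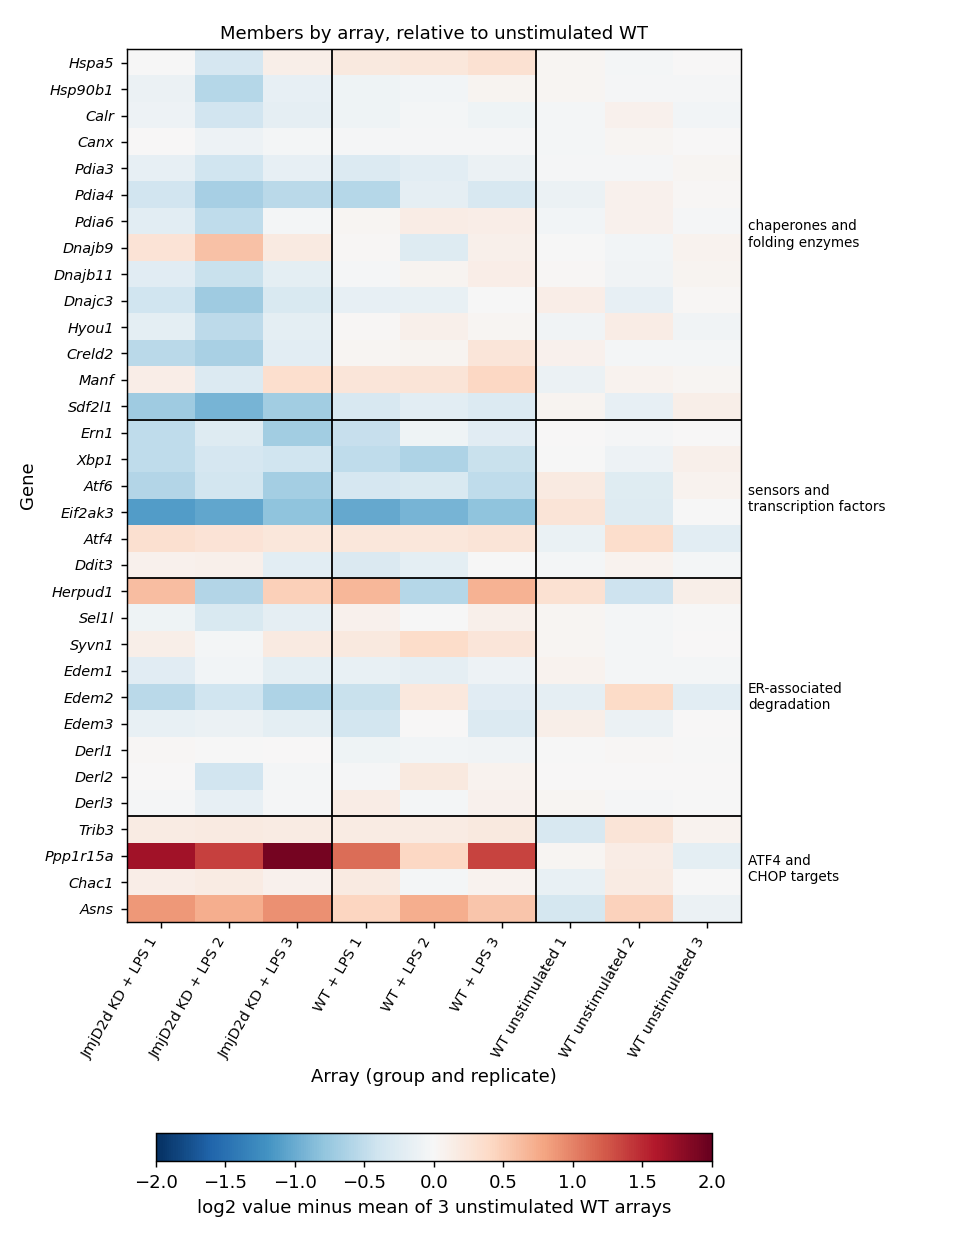
Log2 value of each of the 33 genes on each array minus the mean of the 3 unstimulated WT arrays, from blue (lower) to red (higher), with genes grouped by role and arrays by group. The darkest red cells are Ppp1r15a in knockdown cells. The darkest blue ones include Eif2ak3 in both LPS-treated groups and Sdf2l1 on the second knockdown array. Among the chaperones the second knockdown array is the bluest column.

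Eif2ak3 had the deepest fall among the sensors. Its log2 values were 8.69, 8.77 and 9.003 in knockdown cells after LPS, 8.79, 8.88 and 9.003 in WT cells after LPS, and 10.07, 9.55 and 9.80 in unstimulated WT cells. The LPS-treated groups overlapped, and both lay wholly below the unstimulated cells. The call in WT cells (limma adjusted p = 0.00583) held in 18 of 18 alternative settings, and so did that of knockdown against unstimulated cells, -0.99 with an adjusted p of 0.00369. Knockdown and WT cells after LPS differed by -0.07, with a 95% confidence interval of -0.39 to 0.24.

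Xbp1, whose spliced form drives folding and degradation genes, had log2 values of 12.39, 12.56 and 12.50 in knockdown cells after LPS, 12.39, 12.28 and 12.45 in WT cells after LPS, and 12.89, 12.79 and 13.001 in unstimulated WT cells. Again both LPS-treated groups lay below every unstimulated array. The adjusted p was 0.00619 in WT cells by limma, and the call held in 18 of 18 alternative settings. Against unstimulated cells the knockdown value was -0.41 (adjusted p = 0.015), which passed in 15 of 18 settings. It did not pass without the first or the third knockdown array (0.0535 and 0.0545) or the third unstimulated array (0.0614). After LPS the knockdown cells differed from WT cells by 0.11, with an interval of -0.07 to 0.29.

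The other ER sensors, Ern1 and Atf6, had the same order of group means as Eif2ak3, with smaller differences from unstimulated cells. Ern1, the gene of IRE1, had values of 9.53, 9.78 and 9.33 in knockdown cells after LPS, 9.57, 9.94 and 9.81 in WT cells after LPS, and 10.03, 10.02 and 10.05 in unstimulated WT cells. Every LPS-treated array was below every unstimulated one, and the LPS-treated groups overlapped. The difference was -0.26 in WT cells (limma adjusted p = 0.23) and -0.49 for knockdown against unstimulated cells (0.0441, passing in 9 of 18 settings). The call against unstimulated cells was lost without the first or the third knockdown array (0.116 and 0.14), the third WT LPS array (0.0728) or any 1 unstimulated array (0.0874 to 0.13). Atf6 had values of 10.19, 10.41 and 10.11 in knockdown cells after LPS, 10.45, 10.49 and 10.28 in WT cells after LPS, and 10.96, 10.55 and 10.85 in unstimulated WT cells. Here too both LPS-treated groups lay below the unstimulated cells and overlapped each other. The difference was -0.38 in WT cells (adjusted p = 0.0885, or -0.54 with 0.00826 without the arrays numbered 2) and -0.55 for knockdown against unstimulated cells (0.026, passing in 12 of 18 settings). That call was lost without the first or the third knockdown array (0.0813 and 0.101) or the first or the third unstimulated array (0.0876 and 0.0956).

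The downstream factors Atf4 and Ddit3 were not called in any of the comparisons. Atf4 had values of 9.68, 9.62 and 9.58 in knockdown cells after LPS, 9.58, 9.58 and 9.60 in WT cells after LPS, and 9.22, 9.70 and 9.14 in unstimulated WT cells. The second unstimulated array was the highest of all 9 and the other unstimulated ones the lowest. The LPS difference in WT cells was 0.24 (limma adjusted p = 0.291) with all arrays and 0.41 (adjusted p = 0.0101) with the arrays numbered 2 left out, and its adjusted p ranged from 0.00847 to 0.602 over the 18 settings. Without the second unstimulated array it passed in both comparisons with unstimulated cells (0.00572 for knockdown cells and 0.00847 for WT cells after LPS). Knockdown against unstimulated cells gave 0.28 (adjusted p = 0.265) with all arrays and 0.45 (0.00896) without those numbered 2. Ddit3, the gene of the pro-apoptotic factor CHOP, had values of 8.96, 8.98 and 8.66 in knockdown cells after LPS, 8.59, 8.69 and 8.87 in WT cells after LPS, and 8.84, 8.95 and 8.84 in unstimulated WT cells. All groups overlapped, and the LPS difference in WT cells was -0.16, with an interval of -0.40 to 0.08. Averaged over the 6 sensors and factors, arrays read 9.907, 10.02 and 9.865 in knockdown cells, 9.895, 9.975 and 10.002 in WT cells after LPS, and 10.335, 10.259 and 10.28 in unstimulated WT cells.

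**Figure D3:**
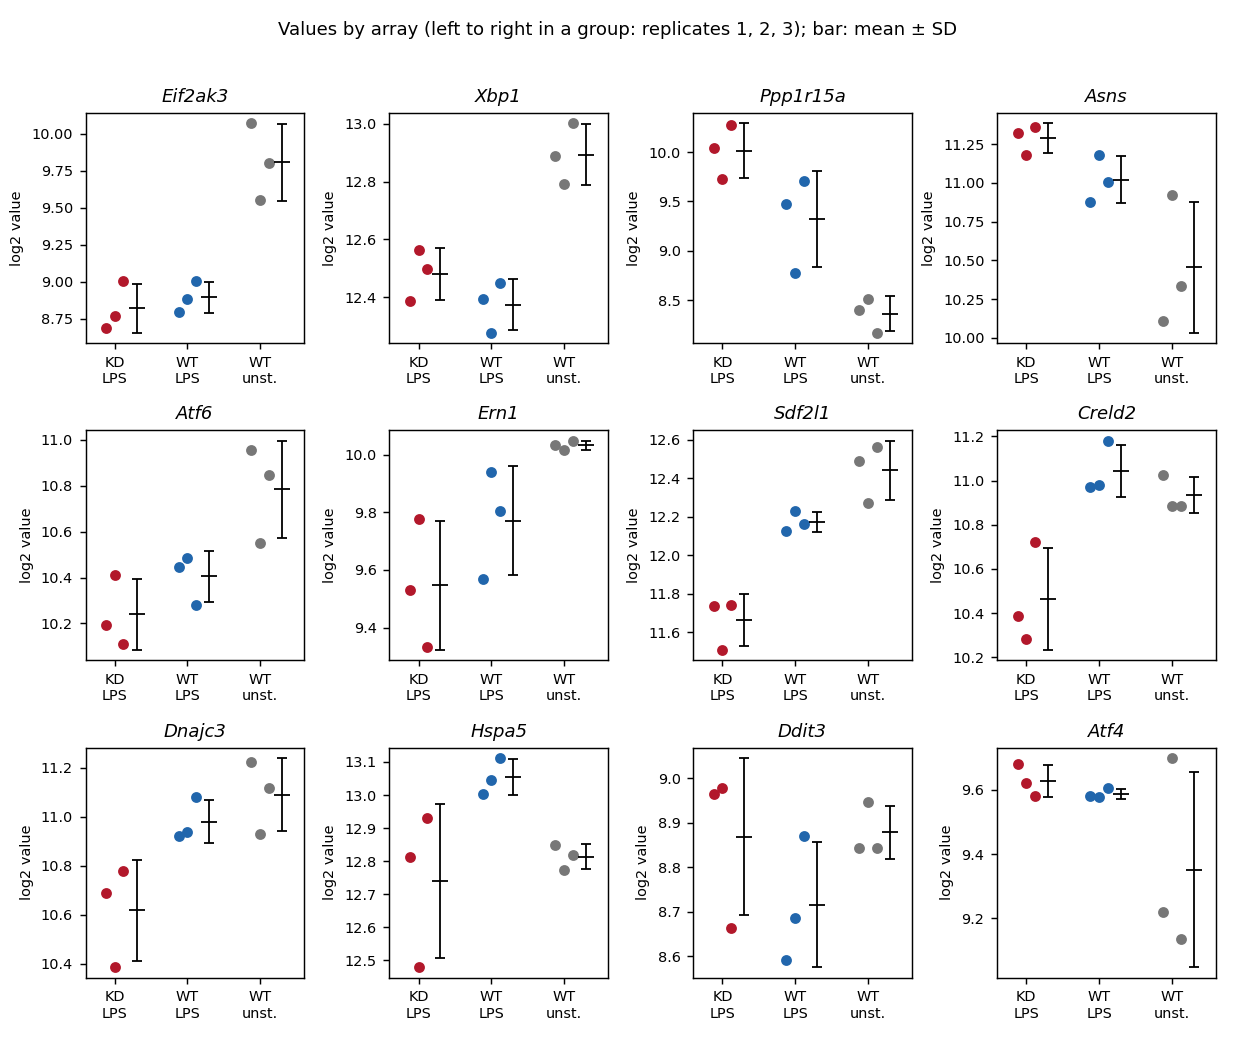
Log2 value per array for 12 of the genes, in knockdown cells after LPS (red), WT cells after LPS (blue) and unstimulated WT cells (grey), with replicates 1 to 3 from left to right and the mean with its SD beside them (n = 3). Vertical scales differ between panels and do not start at 0. Eif2ak3, Xbp1, Ern1, Atf6, Sdf2l1 and Ppp1r15a separate LPS-treated from unstimulated arrays. Sdf2l1, Creld2, Dnajc3 and Ppp1r15a separate knockdown arrays from both WT groups.

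Among the chaperones, the clearest separation of knockdown from WT arrays was in Sdf2l1, a partner of ER DnaJ proteins. Its log2 values were 11.74, 11.51 and 11.74 in knockdown cells after LPS, 12.13, 12.23 and 12.16 in WT cells after LPS, and 12.49, 12.27 and 12.56 in unstimulated WT cells. No group overlapped another, and knockdown was lowest. The difference was -0.27 for LPS in WT cells (limma adjusted p = 0.115, or -0.38 with 0.00946 without the arrays numbered 2) and -0.78 for knockdown against unstimulated cells (0.00237, passing in 18 of 18 settings). Creld2 had values of 10.39, 10.28 and 10.72 in knockdown cells after LPS, 10.97, 10.98 and 11.18 in WT cells after LPS, and 11.03, 10.89 and 10.89 in unstimulated WT cells. All knockdown arrays were below all others, and the WT groups overlapped. Against unstimulated cells its difference was -0.47 (adjusted p = 0.0393, passing in 8 of 18 settings). It did not pass without the first or the second knockdown array (0.12 and 0.0907), the first or the third WT LPS array (0.059 and 0.0509) or any 1 unstimulated array (0.0689 to 0.128), nor without the arrays numbered 2 (-0.40, 0.107).

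Dnajc3 encodes P58IPK, a co-chaperone of BiP that also restrains PERK. Its values were 10.69, 10.39 and 10.78 in knockdown cells after LPS, 10.92, 10.94 and 11.08 in WT cells after LPS, and 11.22, 10.93 and 11.12 in unstimulated WT cells. Knockdown arrays lay below all WT arrays. The difference was -0.36 after LPS (limma adjusted p = 0.225) and -0.47 against unstimulated cells (0.0374, passing in 10 of 18 settings). The call was lost without the first or the second knockdown array (0.075 and 0.0668), the first or the third WT LPS array (0.0581 and 0.0555) or the first or the third unstimulated array (0.124 and 0.119). Its other probe set carried identical values, so it adds no check. Pdia4, a protein disulfide isomerase, had values of 12.64, 12.36 and 12.48 in knockdown cells after LPS, 12.45, 12.84 and 12.70 in WT cells after LPS, and 12.91, 13.10 and 13.04 in unstimulated WT cells. Every LPS-treated array was below every unstimulated one. The difference from unstimulated cells was -0.52 in knockdown cells (adjusted p = 0.0229, passing in 12 of 18 settings) and -0.35 in WT cells (0.0896). Without the arrays numbered 2 these became -0.41 (0.0511) and -0.40 (0.0478). The knockdown call was lost without the second or the third knockdown array (0.0579 and 0.0812) or the second or the third unstimulated array (0.062 and 0.0829). The probe sets of Pdia4 disagreed in sign after LPS, at -0.17 for the one used and 0.28 for the dimmer one, and neither passed. Against unstimulated cells the dimmer one gave -0.12 in knockdown cells (adjusted p = 0.709 by limma over all probe sets), so it did not share that call. In WT cells after LPS it gave -0.40 (0.0951).

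Hspa5 encodes BiP, the major ER chaperone and the usual readout of the response. Its values were 12.81, 12.48 and 12.93 in knockdown cells after LPS, 13.004, 13.04 and 13.11 in WT cells after LPS, and 12.85, 12.77 and 12.82 in unstimulated WT cells. The WT LPS arrays were above all others, and knockdown and unstimulated arrays overlapped. The LPS difference in WT cells was 0.24 (limma adjusted p = 0.202) and that of knockdown against WT after LPS -0.31 (0.258), with an interval of -0.56 to -0.07. Dnajb11, a BiP co-chaperone, had values of 10.38, 10.17 and 10.41 in knockdown cells after LPS, 10.59, 10.66 and 10.75 in WT cells after LPS, and 10.63, 10.54 and 10.67 in unstimulated WT cells. All knockdown arrays were below all WT arrays. The difference was -0.35 after LPS (adjusted p = 0.106) and -0.29 against unstimulated cells, where the adjusted p was 0.0586 without the block, 0.0395 with it and up to 0.184 over the 18 settings.

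The other chaperones had differences of varied size, some as large as those of Hspa5 and Dnajb11. After LPS, the knockdown difference was -0.36 for Pdia6, a disulfide isomerase, -0.36 for Hyou1, a nucleotide exchange factor of BiP, -0.25 for Hsp90b1, the ER form of HSP90, and -0.24 for Manf, a secreted ER stress protein. It was -0.16 for Calr, -0.05 for Pdia3 and -0.02 for Canx, the lectin chaperones and their disulfide isomerase partner. Dnajb9, the co-chaperone that turns IRE1 off, went the other way at 0.39 (limma adjusted p = 0.209). Its values of 12.04, 12.35 and 11.95 in knockdown cells after LPS lay above those of 11.79, 11.51 and 11.86 in WT cells after LPS and 11.75, 11.71 and 11.83 in unstimulated WT cells.

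The size of the chaperone difference depended on the second knockdown array. The mean over the 14 chaperones was 11.68, 11.447 and 11.719 in knockdown cells after LPS, 11.799, 11.848 and 11.911 in WT cells after LPS, and 11.863, 11.863 and 11.881 in unstimulated WT cells. All knockdown arrays were below all WT arrays, and the second was the lowest. That array held the lowest of the 9 values for 13 of the 14 chaperones (92.9%), against 16.3% of all genes. Without it, 11 of the 14 differences after LPS were negative and their median was -0.15. Without all arrays numbered 2, 11 were negative with a median of -0.16, and Sdf2l1 alone was called lower (-0.40, limma adjusted p = 0.0367), where that fit called 3.35% of all genes (2.14% higher and 1.21% lower). With each array centred on its median, 12 were negative with a median of -0.25.

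**Figure D4:**
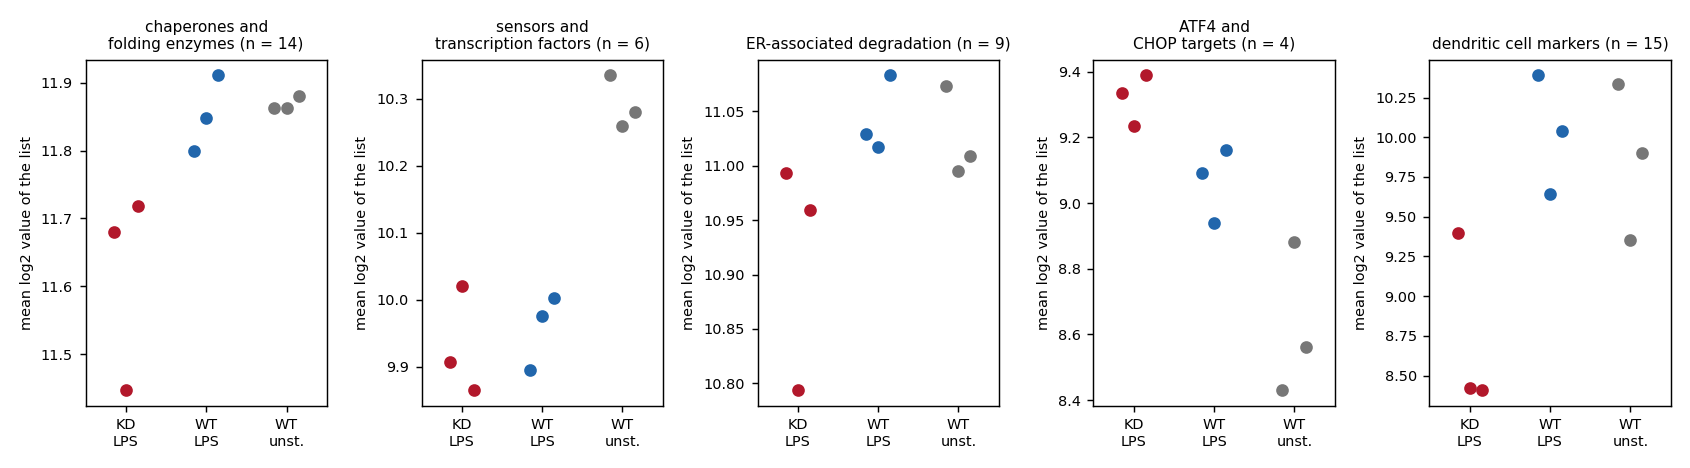
Mean log2 value per array over the genes of each role, and over 15 dendritic cell markers, in knockdown cells after LPS (red), WT cells after LPS (blue) and unstimulated WT cells (grey), with replicates 1 to 3 from left to right. Vertical scales differ and do not start at 0. The chaperone means of the knockdown arrays lie below those of all WT arrays, the sensor means separate LPS-treated from unstimulated arrays, and the means of the ATF4 and CHOP targets lie highest in knockdown cells.

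Of the 9 genes of ER-associated degradation, 0 were called in any of the 3 comparisons without the block. Of all genes, 10.9% were called for LPS in WT cells and 0.762% for knockdown against WT after LPS. For knockdown against unstimulated cells it was 10.9%. With only 9 genes, 0 calls do not set this role apart from all genes. Syvn1, the ubiquitin ligase HRD1, was nearest to a call in the LPS comparison. Its values were 10.91, 11.08 and 10.95 in WT cells after LPS, against 10.74, 10.67 and 10.72 in unstimulated WT cells. The groups did not overlap, and the difference was 0.27 (limma adjusted p = 0.0571). Its adaptor Sel1l had values of 11.999, 11.78 and 11.91 in knockdown cells after LPS, against 12.17, 12.09 and 12.19 in WT cells after LPS. These did not overlap either, and the difference was -0.25 (adjusted p = 0.15). Derl1, Derl2 and Derl3, the derlins of the exit channel, had knockdown differences of 0.08, -0.23 and -0.14 after LPS. Edem1 and Edem3, mannosidase-like factors that mark misfolded glycoproteins, had -0.02 and 0.05. For LPS in WT cells Edem3 differed by -0.21 (adjusted p = 0.243), or by -0.38 (0.0151) without the arrays numbered 2.

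In Herpud1 and Edem2 the array numbered 2 held an extreme value of each group. Herpud1, a scaffold of the degradation complex, had values of 12.47, 11.26 and 12.33 in knockdown cells after LPS, 12.51, 11.29 and 12.55 in WT cells after LPS, and 12.16, 11.43 and 11.97 in unstimulated WT cells. The array numbered 2 was below the mean of the other arrays of its group by a log2 difference of -1.14, -1.24 and -0.63. With these arrays left out, Herpud1 was called higher after LPS in WT cells (0.47, limma adjusted p = 0.0163), against 0.26 (0.71) with them and an adjusted p of up to 0.97 over the 18 settings. Edem2 had values of 11.32, 11.46 and 11.25 in knockdown cells after LPS, 11.42, 12.07 and 11.63 in WT cells after LPS, and 11.69, 12.25 and 11.65 in unstimulated WT cells. Here the arrays numbered 2 were the highest of each group. Knockdown against unstimulated cells differed by -0.52, with an adjusted p of 0.155 without the block, 0.024 with it and up to 0.365 over the 18 settings. Without the arrays numbered 2 it was -0.38 (0.0331).

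Among the targets of ATF4 and CHOP, Ppp1r15a and Asns were called, and the rise of Ppp1r15a was the largest called among the 33 genes. Ppp1r15a had log2 values of 10.05, 9.73 and 10.27 in knockdown cells after LPS, 9.48, 8.78 and 9.71 in WT cells after LPS, and 8.41, 8.52 and 8.17 in unstimulated WT cells. No group overlapped another, and knockdown was highest. The rise in WT cells, 0.96 (SE 0.24, limma adjusted p = 0.0383), passed in 10 of 18 alternative settings. With 1 array left out at a time it passed only without the second knockdown array (0.035) or the second WT LPS array (0.00464), and reached 0.13 without the first or the third WT LPS array. Knockdown against unstimulated cells gave 1.65, or 3.14-fold (adjusted p = 0.00429), which passed in 18 of 18 settings. Between knockdown and WT cells after LPS the difference was 0.69 (SE 0.24, adjusted p = 0.258), positive in all 3 pairs of like-numbered arrays, with an adjusted p from 0.0851 to 0.482 over the settings.

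Asns, which makes asparagine, had values of 11.32, 11.18 and 11.36 in knockdown cells after LPS, 10.88, 11.18 and 11.01 in WT cells after LPS, and 10.11, 10.92 and 10.33 in unstimulated WT cells. Knockdown arrays lay above unstimulated ones, and the second unstimulated array stood far above its group. The difference from unstimulated cells was 0.83 in knockdown cells (limma adjusted p = 0.0268, passing in 13 of 18 settings) and 0.57 in WT cells (0.0966, or 0.72 with 0.00436 without the arrays numbered 2). The knockdown call was lost without the first or the third knockdown array (0.0783 and 0.0968) or the first or the third unstimulated array (0.0765 and 0.0986). Trib3, a pseudokinase induced by CHOP, had LPS-treated values of 7.68 to 7.70 in both knockdown and WT cells, and 7.20 to 7.77 in unstimulated cells. Chac1, which degrades glutathione, ranged from 8.24 to 8.33 in knockdown cells after LPS, 8.12 to 8.34 in WT cells after LPS and 8.01 to 8.32 in unstimulated WT cells. All groups overlapped for both. The means over the 4 targets were 9.337, 9.234 and 9.389 in knockdown cells, 9.093, 8.94 and 9.162 in WT cells after LPS, and 8.431, 8.881 and 8.562 in unstimulated WT cells, with no overlap between the groups.

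The members that share a promoter element were then set side by side. The 11 members with an ERSE or ERSE-II had 11 negative differences for knockdown against WT after LPS. Their median was -0.25, and 0 were called. Among them Derl3 read 7.05 to 7.36 over the arrays, below 7.54, the lowest median of the tested genes on any array. Without the arrays numbered 2, 10 of the 11 were negative and the median was -0.14. The 18 members with a promoter window and neither element had 10 negative differences and a median of -0.01, both the same without those arrays. Over all genes 59.3% of differences were negative. The 12 measured genes with an ERSE that are no members had 7 negative differences and a median of -0.05 (8 and -0.13 without those arrays). For LPS in WT cells the median was 0.06 over the 11 members with an element and -0.15 over the 18 without, and the 3 called members, Eif2ak3, Xbp1 and Ppp1r15a, were among the 18. These are descriptions with no test, and most members with an element are chaperones, so role and element overlap.

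Other genes of the same pathways, 108 measured of 113 listed in 5 groups, were counted in the same fit. These lists were chosen with earlier results of these data known, so the shares called in them are descriptions and no test. LPS in WT cells raised 13 and lowered 7 (18.5%), against 10.9% of all genes. The integrated stress response group, the amino acid and translation arm around ATF4, held 11 of these 20 calls among its 25 genes. These were 7 higher and 4 lower, and 13 of the 25 differences were negative, with a median of -0.01. Atf3, a stress-induced transcription factor, rose by 0.93 (limma adjusted p = 0.000729), Ppp1r15b, the constitutive counterpart of Ppp1r15a, by 0.88 (0.00175), and Slc7a11, the cystine transporter, by 1.15 (0.00609). Aldh18a1, an enzyme of proline synthesis, fell by 0.96 (0.00211). Among 25 further folding enzymes 3 rose, namely Hspa13, an HSP70-type protein, by 0.70 (0.00319), Dnajc1 by 0.57 (0.00922) and the oxidase Ero1a by 0.66 (0.0331).

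Among 17 further transducers and factors, Traf2 and Map3k5, the adaptor and kinase that link IRE1 to JNK, rose by 0.98 (limma adjusted p = 0.000814) and 0.89 (0.00249), as did Nfyb, a subunit of NF-Y, by 0.39 (0.0265). Mbtps1, the protease that makes the first cut in ATF6, fell by 0.47 (0.0253). Of 20 translocon and signal peptidase genes only Sec11a passed, at -0.22 (0.0422), and of 21 further degradation genes only Os9, a lectin that reads trimmed glycans, at -0.26 (0.0422). Knockdown against WT after LPS gave 0 calls among the 108, against 0.762% of all genes. An unadjusted p under 0.05 was reached by 9 with higher and 11 with lower values, against 7.32% and 5.79% of all genes. With the block, where 2.75% of all genes were called, 1 was called, Dnajc1, which was lower. Its values were 10.37, 10.45 and 10.26 in knockdown cells after LPS, against 10.71, 10.89 and 10.66 in WT cells after LPS.

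LPS-treated knockdown against unstimulated WT cells gave 14 higher and 11 lower among the 108 (23.1%), against 10.9% of all genes. The integrated stress response group held 11 of these 25 calls, 8 higher and 3 lower. Its smallest adjusted p by limma were those of Ppp1r15b (0.95, adjusted p = 0.00112), Atf3 (0.77, 0.0013), Phgdh, the first enzyme of serine synthesis (0.91, 0.00355), and Aldh18a1 (-0.72, 0.00607). Map3k5 was higher by 0.99 (0.00148) and Traf2 by 0.53 (0.00844). Uggt1, which tests glycoproteins for folding, was lower at -0.58 (0.00935), as were the disulfide isomerase P4hb at -0.39 (0.0274), Sec11a at -0.42 (0.00335), Rpn1 of the oligosaccharyltransferase at -0.48 (0.00796) and Os9 at -0.38 (0.00974).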

How the data were processed

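RNA of 9 arrays in 3 groups of 3 was measured. The authors deposited log2 intensities summarised with RMA, per the submitters' processing notes (no version named); the build of the platform is not given in the sources used here. Of 35556 deposited probe sets, 21789 named 1 gene, 1621 several and 12146 none. The first kind was matched by Entrez identifier to RefSeq GRCm38.p6 (21698 matched, 91 kept the platform symbol), and the brightest probe set per gene gave 19938 genes. Groups came from the sample titles.

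limma 3.58.1 (R 4.3.3) fitted a mean per group to all 9 arrays, with empirical Bayes two-sided tests (6 residual and 2.31 prior degrees of freedom), Benjamini-Hochberg adjustment over all genes and a threshold of 0.05. Its code was tested on simulated data. The 3 comparisons share arrays. The number of arrays limits the precision, and p-values reflect the spread between these cultures. Deviations from the group means correlated by 0.14 to 0.48 in the 9 pairs of like-numbered arrays and by -0.41 to 0.25 in the 18 other pairs. These ranges overlapped, and the labels do not say that like-numbered arrays are paired. The main fit therefore used no pairing, and the replicate number as a block was an alternative fit. Other alternatives were quantile normalization, median centring, a filter on the dimmest 25% of genes (14953 kept, all 33 members among them), a trended and robust prior, other probe set rules, fits of 2 groups only and each array left out. Leaving out all arrays numbered 2 was added after seeing the data.

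The members, the gene lists and the promoter elements were chosen with earlier results of these data known. Named were all members, Kdm4d, and up to 4 called genes per list and comparison with the smallest p. Probe sets naming several genes or none were left out.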

Additional observations from a re-analysis of the deposited data

How the results depend on the processing

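No result turned its direction past the threshold under any of the 18 alternatives. In WT cells after LPS, the count of members called higher was 1, and it was 2 with quantile normalization, 0 in a fit of the 2 groups only, 4 without the arrays numbered 2 and 0 to 3 with 1 array left out. That of members called lower was 2, and it was 4 with quantile normalization, 6 without the arrays numbered 2 and 2 to 4 with 1 array left out. For the other pathway genes the 13 called higher became 7 to 17 with 1 array left out; the 7 called lower became 11 with quantile normalization, 4 with the trended prior, 21 without the arrays numbered 2 and 1 to 16 with 1 array left out. For knockdown against WT after LPS, the replicate block gave 2 members lower (0 without it) and 1 other pathway gene lower; leaving out the arrays numbered 2 gave 1 member lower and 1 other gene higher, and leaving out 1 array gave 0 to 1 of each. For knockdown against unstimulated cells, the 2 members higher became 1 in a fit of 2 groups only and 1 to 3 with 1 array left out; the 8 lower became 4 with median centring, 4 in a fit of 2 groups only and 2 to 8 with 1 array left out, lowest without the third unstimulated array. Among the other pathway genes the 14 higher became 7 to 15 and the 11 lower 5 to 13 with 1 array left out. The replicate block, which pairs like-numbered arrays, called 2.75% of all genes for knockdown against WT after LPS, against 0.762% without it; among members it changed the calls of Creld2, Sdf2l1, Dnajb11 and Edem2 and no other. The causes of these shifts were not tested.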
